A study of Mus musculus with 4 samples.

Results

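The accessible regions described here belong to 10 mouse genes of endothelin signalling and of the melanocyte niche in the hair follicle: the ligand genes Edn1, Edn2, Edn3 and Kitl, the endothelin processing enzyme gene Ece1, the receptor genes Ednra, Ednrb and Kit, and the melanocyte genes Mitf and Dct. A peak was taken as theirs when its summit lay nearer to the body of one of them than to any other protein-coding gene, at most 100 kb away, and dKO and WT peaks sharing 1 bp or more were merged into regions. This gave 110 regions out of 79122 in all and out of 70877 that could be assigned to a gene in the same way. They came from 83 peaks of the knockout list and 102 peaks of the wild-type list, and 9 of the 10 genes had at least 1.

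Open chromatin was profiled by ATAC-seq, which inserts sequencing adapters where DNA is accessible to a transposase. The cells were hair follicle stem cells of back skin, from male mice killed in the second resting phase of the hair cycle, at postnatal day 70. The knockout mice (dKO, 2 animals) carried the Sox9-CreER transgene, floxed NFIBfl/fl and NFIXfl/fl alleles, and R26-YFPfl/fl, a reporter of Cre activity. Their littermates (WT, 2 animals) had the same floxed alleles and reporter but no Cre. The sort kept live cells that lacked Sca-1 and carried integrin a6 and CD34, and the dKO cells also had to be YFP-positive, so the gates of the groups differed. Sox9-CreER acts in Sox9-expressing cells and their descendants, and the schedule of its activation is not stated here. NFIB and NFIX belong to the nuclear factor I family of DNA-binding regulators, and the question is how open chromatin in the stem cells differs without both of them.

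Endothelins are short peptides cut from larger precursors by the membrane protease ECE1, and they act through the G protein-coupled receptors EDNRA and EDNRB. In skin, EDN3 acting on EDNRB and KIT ligand acting on its receptor KIT support melanocyte precursors, in which MITF is the master transcription factor and DCT, dopachrome tautomerase, is an enzyme of pigment synthesis and an early marker. Melanocyte stem cells share the bulge of the follicle with the hair follicle stem cells, and earlier mouse work linked NFIB in the epithelial stem cells to Edn2 and to the behaviour of the neighbouring melanocyte stem cells. The sort selected epithelial stem cells by surface markers, and its purity was not measured.

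There was 1 peak list per genotype, so the spread between mice is unknown and the values below carry no p-values. The lists held 63548 dKO peaks and 68197 WT peaks. The median pileup, the number of reads or fragments over a peak's summit, was 38 in the dKO list and 73 in the WT list, and the lowest local background was 2.73 in dKO and 5.29 in WT. Pileups were therefore divided by the median of their list, and the log2 scaled ratio of dKO over WT is given for shared regions with a 95% exact interval of counting error only, which does not cover variation between mice. Over all 51129 shared regions the median log2 scaled ratio was −0.15, and the values below are to be read against it. At the marker genes with an annotated start, a peak covered the start of 7 of 7 stem cell and basal epithelial genes in both lists, of 0 of 7 immune genes in both, of 1 of 5 endothelial genes in dKO and 2 of 5 in WT, of 1 of 4 fibroblast and dermal papilla genes in both, and of 2 of 8 melanocyte genes in dKO and 3 of 8 in WT. Over all protein-coding genes these shares were 56.5% in dKO and 57.1% in WT.

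Of the 110 regions, 8 were found in the dKO list only, 28 in the WT list only and 74 in both. The dKO-only share was 7.27% (95% Wilson interval 3.73 to 13.7) against 12.8% of all gene-assigned regions, and the WT-only share was 25.5% (18.2 to 34.3) against 21.2%. Both background shares lie within the intervals of the members. Among the 74 shared regions, the scaled pileup was at least 2-fold higher in dKO at 6 (8.11%, background 6.34%) and at least 2-fold lower in dKO at 17 (23.0%, background 8.8%). Of these 17, 6 belonged to Ednra, and the others to Edn1, Edn2, Ece1, Kitl and Mitf. Regions of 1 gene lie along 1 locus and are not replicates. The median log2 scaled ratio was −0.45 over the members, and 50 of 74 lay below the median of all shared regions. Single-list regions were mostly weak: from the stronger 50% of their list came 0 dKO-only regions (background 1.09%) and 3 WT-only regions (background 2.54%). On the deposited fold enrichment, which divides the pileup by the local background, the median log2 ratio was 0.02 for the members and 0.07 for all shared regions, so the lower level in dKO was seen in pileup and not in enrichment over the surroundings. That background can include reads of the region itself, so pileup and enrichment are not independent measures.

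**Figure D1:**
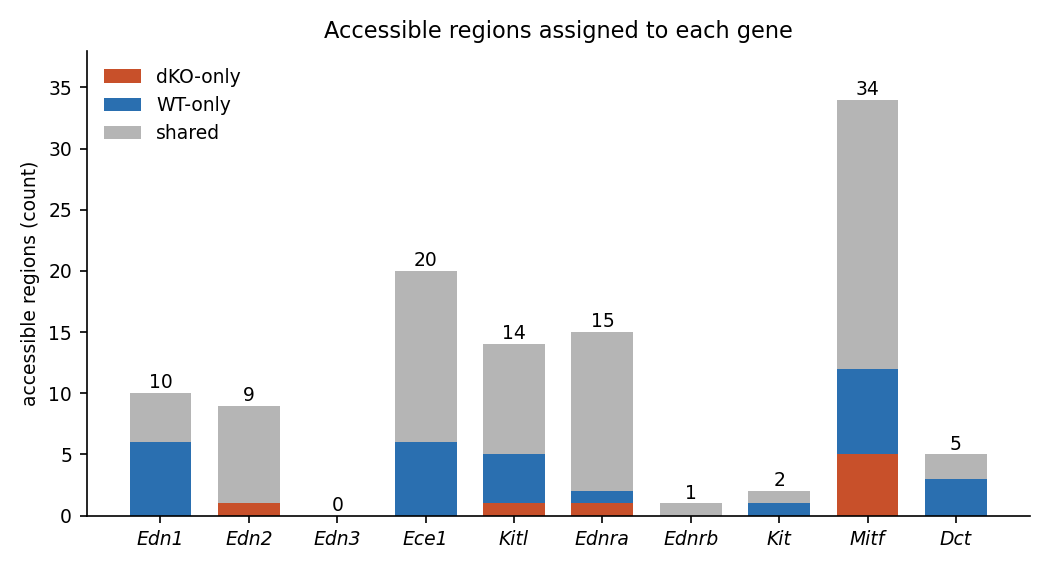
Number of accessible regions assigned to each of the 10 genes, stacked by whether a peak was called in the dKO list only, in the WT list only or in both. Mitf had 34 regions and Edn3 had 0. All single-list regions of Edn1, Ece1 and Dct were WT-only, and the single-list region of Edn2 was dKO-only.

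The 8 regions with a summit within 1 kb of an annotated start of their gene were all shared, with a median log2 scaled ratio of −0.09 and none past 2-fold. Among all gene-assigned regions at starts, 2.62% were dKO-only and 3.18% WT-only. Of the 9843 shared ones, 1.72% were at least 2-fold higher in dKO and 1.13% at least 2-fold lower, with a median of −0.15. The member starts were thus close to starts in general. Single-list regions of the members lay in gene bodies (4 dKO-only and 12 WT-only of 43), upstream of the gene (3 and 5 of 25) and downstream of it (1 and 11 of 34). Over all gene-assigned regions, 14.2% in gene bodies were dKO-only and 25.4% WT-only, and outside genes 15.3% were dKO-only and 22.7% WT-only. The lowest median log2 scaled ratio, −0.87, was that of the 17 shared regions upstream of a gene, and it was −0.57 in gene bodies and −0.22 downstream. Of the upstream shared regions 8 of 17 were at least 2-fold lower in dKO, against 11.4% of all shared gene-assigned regions outside genes, and 6 of those 8 belonged to Ednra. The median distance between the dKO and WT summits was 40 bp for the members and 45 bp for all shared regions. The distance was over 200 bp at 9 of the 74 member regions, up to 874 bp in Ece1. The share of all shared regions over 200 bp was not computed.

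The 3 endothelin ligand genes differed in peak calls at their starts. The starts of Edn1 and Edn2 were covered by a peak in both genotypes, and that of Edn3 by none. Their sequences upstream of the start, 250 bases each from RefSeq (GRCm38.p6, the assembly that mm10 names), are shown because the start peaks of Edn1 and Edn2 reach over them, while Edn3 is the uncovered one. They are written 5′ to 3′ on the gene's strand. They hold neither the NFI half-site TTGGC on either strand nor the MITF E-box CATGTG, so no letters are in capitals. TTGGC is found in 43.0% of 21262 such windows of protein-coding genes, and its absence from a window says nothing about binding nearby.
Edn1 (chr13:42301226-42301475, plus strand): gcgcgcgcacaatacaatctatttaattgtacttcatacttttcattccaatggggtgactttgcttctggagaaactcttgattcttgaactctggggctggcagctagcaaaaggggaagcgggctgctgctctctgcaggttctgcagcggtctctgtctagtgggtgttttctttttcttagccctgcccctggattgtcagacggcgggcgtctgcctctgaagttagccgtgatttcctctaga
Edn2 (chr4:120160956-120161205, plus strand): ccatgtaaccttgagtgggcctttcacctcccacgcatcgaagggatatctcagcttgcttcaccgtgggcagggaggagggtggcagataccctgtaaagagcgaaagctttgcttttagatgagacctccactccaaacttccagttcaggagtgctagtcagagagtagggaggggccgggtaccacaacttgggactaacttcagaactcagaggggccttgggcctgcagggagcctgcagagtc
Edn3 (chr2:174760369-174760618, plus strand): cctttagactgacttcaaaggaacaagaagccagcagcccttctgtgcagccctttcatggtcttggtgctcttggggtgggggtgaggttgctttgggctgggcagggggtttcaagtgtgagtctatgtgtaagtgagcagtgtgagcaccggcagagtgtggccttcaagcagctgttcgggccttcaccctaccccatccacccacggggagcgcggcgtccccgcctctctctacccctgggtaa

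Edn1, which encodes the endothelin best known as a vasoconstrictor, had 0 dKO-only, 6 WT-only and 4 shared regions (gene 13614, chromosome 13, 42301476 to 42307990, mm10). Of the 2548 genes with at least 8 regions, 2.04% had a WT-only share as high as its 60.0% (95% Wilson interval 31.3 to 83.2). At its start the pileup was 39 in dKO and 133 in WT, with both summits 90 bp upstream. This is a log2 scaled ratio of −0.83 (−1.38 to −0.30), while the deposited fold enrichment was nearly the same, at 6.23 in dKO and 6.47 in WT. The start region is thus lower in scaled pileup in dKO and level in enrichment.

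Past the 3′ end of Edn1 lay a run of regions, most of them lower or missing in dKO. The strongest WT-only region of the gene, 38.3 kb downstream of the start (chr13:42339449-42340030), had no dKO peak and a WT pileup of 95. At the same scaled level the dKO list would have shown 49.5, and about 10 would have been enough for a call if the dKO background there was that of WT scaled by the lists' lowest backgrounds. The next, 21.7 kb downstream (chr13:42322844-42323477), had no dKO peak and a WT pileup of 56, which corresponds to 29.2 in dKO where about 9 would have been enough. These 2 regions were in the stronger 50% of the WT list, a class that made up 2.54% of all gene-assigned regions. The other 4 WT-only regions were weaker, with WT pileups of 21 to 34, which correspond to 10.9 to 17.7 in dKO against 9 or 10 needed. That with a pileup of 24 lay 56.7 kb upstream of the start, and the others lay downstream.

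Of the 3 shared regions beyond the Edn1 gene, 2 were lower and 1 was higher in dKO. The region 73.0 kb downstream (chr13:42374156-42375053) had a pileup of 43 in dKO and 186 in WT, a log2 scaled ratio of −1.17 (−1.68 to −0.69). The region 57.3 kb downstream had 19 in dKO and 63 in WT (−0.79, −1.61 to −0.03). Between them and the start, the region 54.5 kb downstream (chr13:42355480-42356224) had 33 in dKO and 25 in WT, a log2 scaled ratio of 1.34 (0.55 to 2.15). Of these 3 intervals, that of the region at 57.3 kb ends closest to 0. The nearest protein-coding gene on that side is Phactr1, 372.4 kb from Edn1, and on the other side Hivep1, 116.4 kb away.

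Edn2, the endothelin gene that earlier mouse work placed downstream of NFIB in these cells, was the ligand gene with the highest median scaled ratio of dKO over WT. It had 1 dKO-only, 0 WT-only and 8 shared regions (gene 13615, chromosome 4, 120161206 to 120167360, mm10). Of genes with at least 8 regions, 8.24% had no WT-only region. The median log2 scaled ratio of its shared regions was 0.44, and 6.0% of the 1384 genes with at least 8 shared regions had a median as high. The median stayed above 0 under every alternative scaling that was run. It was 0.13 with the deposited fold enrichment, against 0.07 over all shared regions. With nearest genes within 20 kb it fell to 0.11, against −0.15 over all shared regions.

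At the Edn2 start the pileup was 133 in dKO and 189 in WT, a log2 scaled ratio of 0.43 (0.10 to 0.76), with the summit 88 bp inside the gene. The fold enrichment there was 10.4 in dKO and 11.04 in WT, so this start was higher in dKO in scaled pileup and slightly lower in enrichment. The region 6.0 kb upstream (chr4:120154620-120155343) had a pileup of 42 in dKO and 34 in WT, a log2 scaled ratio of 1.25 (0.56 to 1.94) and a fold enrichment of 6.48 in dKO and 3.75 in WT. Thus the upstream region was higher in dKO on both measures.

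Beyond the 3′ end of Edn2, scaled pileup was lower in dKO at the nearer regions and higher in dKO at the farther ones. The region 9.5 kb from the start had 39 in dKO and 146 in WT (log2 scaled ratio −0.96, −1.51 to −0.44). The region 10.9 kb away had 87 in dKO and 195 in WT (−0.22, −0.60 to 0.15). The strongest region of the gene, 27.7 kb away (chr4:120188255-120190425), had 113 in dKO and 527 in WT, a ratio of −1.28 (−1.59 to −0.98), and its peak was 1009 bp long in dKO and 2171 bp in WT. Its local background was 8.69 in dKO and 51.0 in WT, and its fold enrichment was 11.8 in dKO and 10.2 in WT. This large region was thus lower in dKO in scaled pileup and higher in enrichment.

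Past that region, all remaining regions of Edn2 were at or above the WT level in scaled pileup. The region 37.2 kb away had 40 in dKO and 41 in WT, a log2 scaled ratio of 0.91 (0.24 to 1.57). The region 43.4 kb away (chr4:120204358-120205238) had 30 in dKO and 28 in WT, a ratio of 1.04 (0.25 to 1.84). The region 45.4 kb away had 17 in dKO and 24 in WT, a ratio of 0.44 with an interval that includes 0 (−0.54 to 1.40). In fold enrichment, the region at 37.2 kb was nearly level, at 6.74 in dKO and 6.52 in WT. That at 43.4 kb was higher in dKO (5.195 against 4.151) and that at 45.4 kb lower (3.539 against 3.965). The last, 51.2 kb away (chr4:120212041-120213039), was dKO-only with a pileup of 22, which corresponds to 42.3 in WT where about 14 would have been enough for a call. With Hivep3 23.2 kb and Foxo6 99.7 kb from the gene, these regions were nearer to Edn2 than to any other protein-coding gene, and whether they act on it was not measured.

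Edn3, the ligand that melanocyte precursors depend on, had no region (gene 13616, chromosome 2, 174760619 to 174784042, mm10). The nearest summit lay 86.5 kb from the gene body in dKO and 84.8 kb in WT, and both were nearer to Zfp831. No peak is not the same as no accessibility, since a region below the calling limit is not listed, and the lowest pileup listed was 9 in dKO and 14 in WT.

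**Figure D2:**
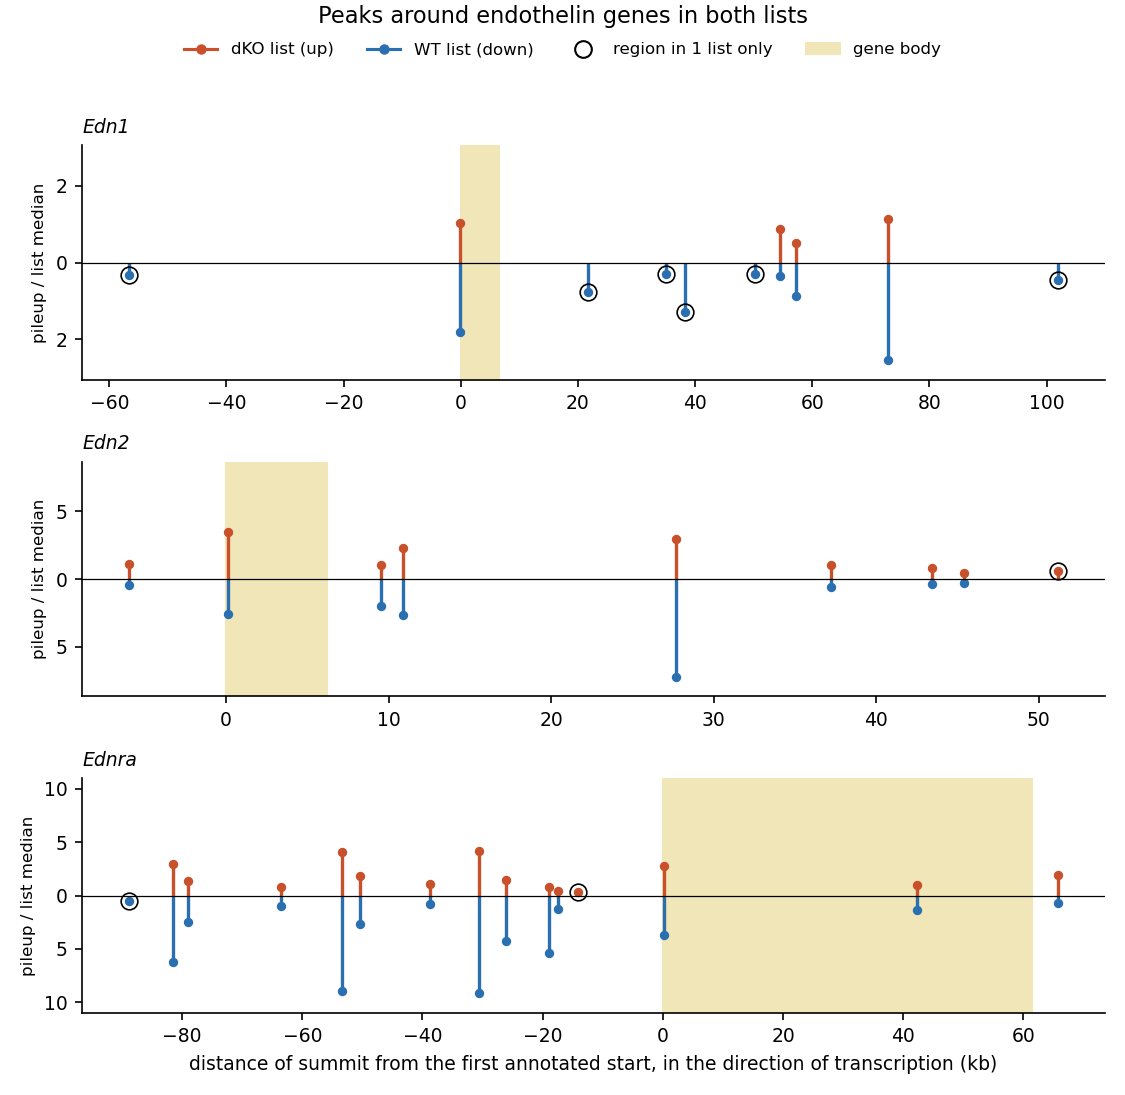
Position and height of peaks around Edn1, Edn2 and Ednra. The horizontal axis is the distance of the summit from the first annotated start in kb, in the direction of transcription, and the vertical axis is the summit pileup divided by the median of its list, with dKO drawn up and WT drawn down. Open circles mark regions present in 1 list only and the shaded band is the gene body. Most WT stems are longer in the stretch upstream of Ednra, but at 38.8 kb the dKO stem is longer and at 14.2 kb there is a dKO stem only. At Edn2 the stems at the start, upstream and from 37.2 kb on are longer in dKO.

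Ece1, whose product releases active endothelins, had 0 dKO-only, 6 WT-only and 14 shared regions, most of them inside its 103.0 kb body (gene 230857, chromosome 4, 137862237 to 137965229, mm10). The median log2 scaled ratio of the shared regions was −0.72, and 3.61% of genes with at least 8 shared regions had a median as low. In all, 12 of 14 were below the median of all shared regions. After scaling to the lowest background of each list, the local background was also lower in dKO at 14 of 14, by a median log2 ratio of −0.66. Over all shared gene-assigned regions it was lower at 29364 of 46745, with a median of −0.22. The median log2 ratio of fold enrichment at Ece1 was −0.01. Single regions differed in this: 8.2 kb upstream, 93.0 kb inside and past the 3′ end at 106.2 kb, the log2 ratio of fold enrichment was also lower in dKO, at −0.96, −0.58 and −0.84.

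The region at the first start had 117 in dKO and 285 in WT (log2 scaled ratio −0.34, −0.67 to −0.03), and that at the downstream start, 51.5 kb inside the gene, had 97 in dKO and 207 in WT (−0.15). The intronic regions at 46.4 kb and 55.4 kb were also near the WT level, with ratios of 0.03 (−0.54 to 0.57) and 0.21 (−0.33 to 0.73). The strongest region, 67.6 kb inside (chr4:137929115-137930121), had 191 in dKO and 605 in WT, a ratio of −0.72 (−0.96 to −0.48). Its neighbour at 69.2 kb had 66 in dKO and 255 in WT (−1.01, −1.42 to −0.61). The other 2 regions past 2-fold were at 93.0 kb, with 22 in dKO and 97 in WT (−1.20, −1.94 to −0.52), and 8.2 kb upstream, with 19 in dKO and 76 in WT (−1.06, −1.87 to −0.32). Of the WT-only regions, the strongest lay 5.7 kb inside the gene (chr4:137867666-137868423) with a WT pileup of 105, which corresponds to 54.7 in dKO where about 23 would have been enough. The remaining 5 WT-only regions had pileups of 18 to 64.

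Kitl, the ligand of KIT that supports melanocytes, had 1 dKO-only, 4 WT-only and 9 shared regions (gene 17311, chromosome 10, 100015615 to 100100416, mm10). The median log2 scaled ratio of its shared regions was −0.29, and 30.0% of genes with at least 8 shared regions had a median as low. The Kitl start was equally open after scaling, with a pileup of 201 in dKO and 383 in WT and a log2 scaled ratio of 0.01 (−0.24 to 0.26). The regions 5.4 kb and 64.0 kb upstream had ratios of 0.26 (−0.11 to 0.63) and −0.29 (−0.62 to 0.03), with intervals that include 0. A stretch inside the gene was lower in dKO. The region at 38.4 kb (chr10:100053710-100054501) had 14 in dKO and 75 in WT (−1.48, −2.42 to −0.64), and that at 45.5 kb (chr10:100060679-100061822) had 30 in dKO and 136 in WT (−1.24, −1.86 to −0.66). Between them, at 43.8 kb, lay a WT-only region with a pileup of 46, which corresponds to 23.9 in dKO where about 18 would have been enough. The WT-only region at 17.0 kb had a pileup of 20, which corresponds to 10.4 in dKO where about 11 would have been needed, so a difference there was not detectable at this depth. The single dKO-only region, 75.8 kb upstream, had a pileup of 11, which corresponds to 21.1 in WT where about 14 would have been enough.

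Ednra, the endothelin receptor with high affinity for EDN1 and EDN2, had one of the lowest median scaled pileup ratios of the members, while its median ratio of fold enrichment was above 0. It had 1 dKO-only, 1 WT-only and 13 shared regions (gene 13617, chromosome 8, 77663029 to 77724452, mm10, minus strand), of which 10 shared regions lay upstream of the start, where the next protein-coding gene, Ttc29, is 488.8 kb away. The median log2 scaled ratio was −0.87, or −0.49 with nearest genes within 20 kb, and 1.23% of genes with at least 8 shared regions had a median as low. Of 13 shared regions, 6 were at least 2-fold lower in dKO and 1 was at least 2-fold higher.

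The region 19.0 kb upstream of the Ednra start (chr8:77742901-77743893) had a pileup of 29 in dKO and 391 in WT. Its log2 scaled ratio of −2.81 (−3.41 to −2.27) was the lowest of the 74 shared member regions. The fold enrichment there was 5.71 in dKO and 9.28 in WT, so this region was lower in dKO on both measures. The adjoining region at 17.5 kb had 17 in dKO and 95 in WT (−1.54, −2.38 to −0.79), and there the fold enrichment was 3.367 in dKO and 2.295 in WT, the opposite order.

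Other regions of the upstream stretch of Ednra were also lower in dKO in scaled pileup. The region 26.1 kb upstream had 56 in dKO and 309 in WT (log2 scaled ratio −1.52, −1.96 to −1.11). The region at 30.6 kb (chr8:77754509-77755881), the highest member region in the WT list, had 160 in dKO and 669 in WT (−1.12, −1.38 to −0.87). The region at 53.4 kb (chr8:77777296-77778419) had 155 in dKO and 656 in WT (−1.14, −1.40 to −0.88), and that at 81.5 kb had 113 in dKO and 454 in WT (−1.06, −1.38 to −0.76). Each of these strong regions was lower in dKO by more than 2-fold after scaling, whereas the weak region between them, at 38.8 kb, had 42 in dKO and 59 in WT with an interval that includes 0 (0.45, −0.16 to 1.05). The remaining 3 were not past 2-fold: the region at 50.4 kb had 70 in dKO and 198 in WT (−0.56, −0.97 to −0.16), that at 63.5 kb had 30 in dKO and 72 in WT with an interval that includes 0 (−0.32, −0.99 to 0.31), and that at 79.0 kb had 52 in dKO and 183 in WT (−0.87, −1.35 to −0.42).

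Among members whose WT pileup was at least 4 times the list median, all 5 of Ednra were at least 2-fold lower in dKO, against 8.52% of 9123 such regions over all genes. The other 6 were the strongest region of Edn2, at −1.28, and regions of Ece1, Kitl and Mitf that were not past 2-fold. The members and the 9123 regions were both picked on the WT value alone, which favours a lower ratio. The 5 Ednra regions lie along 1 locus and are not replicates. At Ednra the local background fell with the pileup: its median log2 ratio over the 13 shared regions was −1.18 after scaling to the lowest background of each list, and 0.289% of genes with at least 8 shared regions had one as low. The local background around the region at 30.6 kb was 16.5 in dKO and 91.1 in WT. The fold enrichment divides by this background, and its median log2 ratio at Ednra was 0.30, above the 0.07 of all shared regions. The Ednra median was thus lower in dKO in scaled pileup and higher in fold enrichment, but single regions differed. The log2 ratio of fold enrichment was −0.30 at 42.3 kb inside the gene. Upstream it was −0.70 at 19.0 kb, −0.15 at 26.1 kb, −0.02 at 53.4 kb and −0.44 at 63.5 kb. At the other shared regions of Ednra it was above 0. The recovered background can include reads of a region itself and of its neighbours, so fold enrichment is not a measure independent of pileup.

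**Figure D3:**
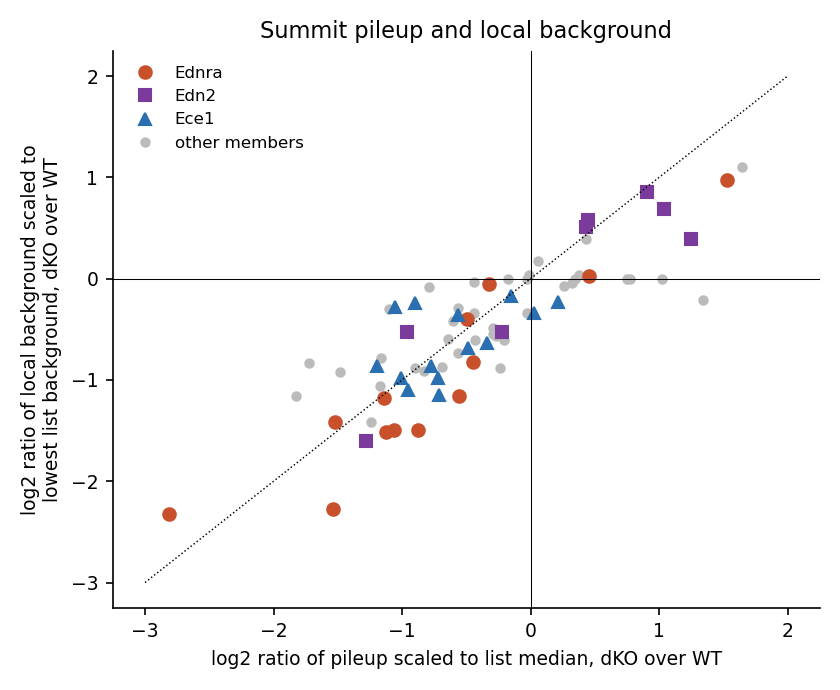
Log2 dKO over WT ratio of the summit pileup, scaled to the median of each list (horizontal), against that of the local background, scaled to the lowest background of each list (vertical), for the 74 shared member regions. The dotted diagonal marks equal change. Most Ednra and Ece1 regions lie in the lower left quadrant, and 5 of the 8 Edn2 regions lie in the upper right.

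At the Ednra start the difference was smaller, with a pileup of 104 in dKO and 273 in WT and a log2 scaled ratio of −0.45 (−0.79 to −0.12). Inside the gene the region 42.3 kb from the start had 37 in dKO and 100 in WT (−0.49, −1.08 to 0.06). Past the 3′ end, 65.8 kb from the start (chr8:77658392-77659034), the order was the opposite, with 72 in dKO and 48 in WT, a ratio of 1.53 (0.98 to 2.08) and a fold enrichment of 11.5 in dKO and 7.79 in WT. The dKO-only region 14.2 kb upstream had a pileup of 11, which corresponds to 21.1 in WT where about 16 would have been enough. The WT-only region at 88.9 kb had a pileup of 37, which corresponds to 19.3 in dKO where about 9 would have been enough.

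The other receptor genes had few and weak peaks in both genotypes, and regions below the calling limit are not listed. Ednrb, the receptor of EDN3 on melanocyte precursors, had 1 shared region, 50.8 kb downstream of its start, with a pileup of 18 in dKO and 17 in WT and a log2 scaled ratio of 1.02 whose interval includes 0 (−0.02 to 2.07). No peak came within 50.6 kb of the Ednrb start in dKO or 50.54 kb in WT (gene 13618, chromosome 14, 103814615 to 103844508, mm10). Kit (gene 16590, chromosome 5, 75574987 to 75656722, mm10) had a weak peak over its start, with a pileup of 14 in dKO and 16 in WT (0.75, −0.40 to 1.88). Its other region was WT-only, 30.0 kb upstream, with a pileup of 33.

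**Figure D4:**
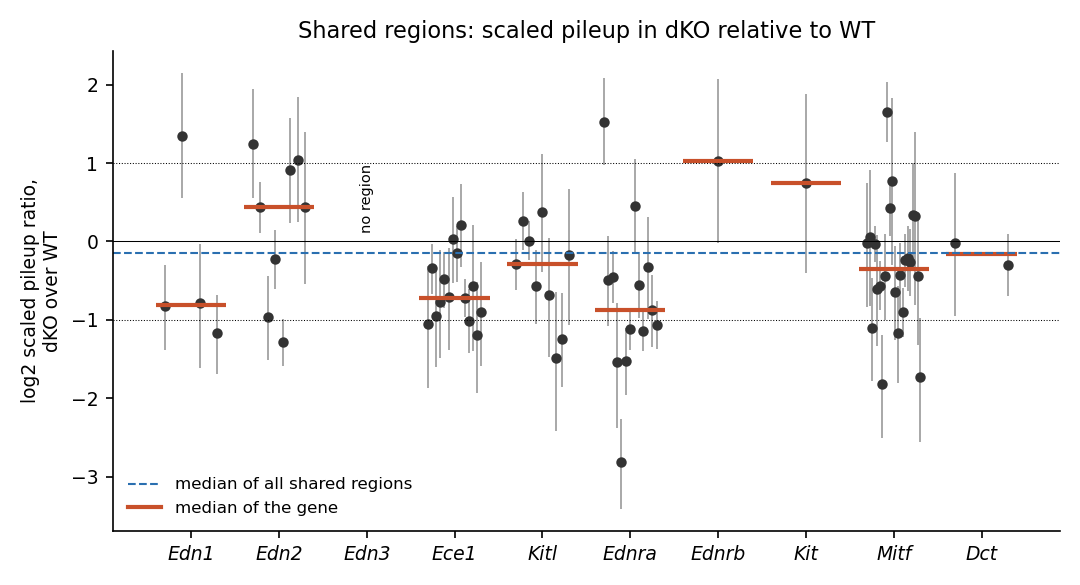
Log2 scaled pileup ratio of dKO over WT for each shared region, by gene and in order of genome position. Vertical lines are 95% exact intervals of counting error, red bars are medians of a gene, the dashed line is the median of all shared regions (−0.15) and dotted lines mark 2-fold. Ednra, Edn1 and Ece1 have the lowest medians (that of Ednra is 0.30 with the deposited fold enrichment), and the medians of Edn2, Ednrb and Kit are above 0, the last 2 from 1 region each.

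Mitf and Dct, the melanocyte genes, were open in part. Mitf (gene 17342, chromosome 6, 97807002 to 98021360, mm10) had 5 dKO-only, 7 WT-only and 22 shared regions, the most of any member, and a median log2 scaled ratio of −0.35. Of genes with at least 8 shared regions, 23.4% had a median as low. The 3 annotated starts of Mitf differed: the first was covered in both lists, and the others were covered in neither. The most downstream start, where the melanocyte-restricted M form begins, was 15417 bp from the nearest peak in dKO and 9971 bp in WT. The 250 bases upstream of the first and of the most downstream start are shown to set the covered start beside the bare one, with that of Dct, whose nearest peak stopped short of the start. Capitals mark the NFI half-site TTGGC, the MITF E-box CATGTG and the cyclic AMP response element TGACGTCA on either strand, and the marked motifs do not overlap.
Mitf, first start (chr6:97806808-97807057, plus strand): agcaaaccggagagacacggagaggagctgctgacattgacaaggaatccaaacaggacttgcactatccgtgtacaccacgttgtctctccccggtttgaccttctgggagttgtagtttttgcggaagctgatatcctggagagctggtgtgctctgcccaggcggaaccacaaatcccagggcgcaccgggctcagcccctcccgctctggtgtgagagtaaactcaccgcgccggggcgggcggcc
Mitf, most downstream start (chr6:97991533-97991782, plus strand): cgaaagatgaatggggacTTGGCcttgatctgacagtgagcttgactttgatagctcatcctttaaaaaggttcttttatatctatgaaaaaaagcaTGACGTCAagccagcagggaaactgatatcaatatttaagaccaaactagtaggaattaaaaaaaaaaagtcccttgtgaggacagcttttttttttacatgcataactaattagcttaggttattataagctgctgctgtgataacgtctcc
Dct (chr14:118052247-118052496, minus strand): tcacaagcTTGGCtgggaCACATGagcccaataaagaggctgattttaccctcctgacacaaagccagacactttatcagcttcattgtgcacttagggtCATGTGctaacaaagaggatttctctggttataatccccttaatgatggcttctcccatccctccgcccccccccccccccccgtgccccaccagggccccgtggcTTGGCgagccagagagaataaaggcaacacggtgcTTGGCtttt

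The motif TGACGTCA occurred at the downstream Mitf start and in 1.92% of all windows, and CATGTG, searched on both strands, occurred 2 times in the Dct window and in 10.1% of all windows. The half-site TTGGC was present at 6 of 16 member starts. The full NFI palindrome, a pair of facing half-sites with a 5-base gap, was present at 0 of 16 member starts and in 0.0329% of all windows, and the AP-1 motif TGANTCA at 0 of 16 and in 6.13%. These matches describe letters only.

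At the first Mitf start the pileup was 230 in dKO and 451 in WT, a log2 scaled ratio of −0.03 (−0.27 to 0.20). Inside the gene, regions moved in both directions. The region 65.1 kb from the first start (chr6:97871343-97872667) had 155 in dKO and 95 in WT, a ratio of 1.65 (1.27 to 2.03), the highest of the 74 shared member regions, with a fold enrichment of 10.8 in dKO and 7.28 in WT. The dKO-only region beside it, at 67.0 kb, had a pileup of 31, which corresponds to 59.6 in WT where about 45 would have been enough. The region 28.8 kb inside (chr6:97835345-97836430) had 24 in dKO and 163 in WT, a ratio of −1.82 (−2.50 to −1.20), with a fold enrichment of 4.63 in dKO and 8.18 in WT. Both regions differed in the same direction on both measures.

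The other Mitf regions past 2-fold were all lower in dKO. They lay 9.2 kb upstream, with 26 in dKO and 107 in WT (log2 scaled ratio −1.10), 145.9 kb inside, with 29 in dKO and 125 in WT (−1.17), and 311.6 kb from the first start, with 17 in dKO and 108 in WT (−1.73). The 5 dKO-only regions had pileups of 12 to 31 and the 7 WT-only regions pileups of 25 to 63, and none was in the stronger 50% of its list. Around the second start, which no peak covered, the nearest regions were both dKO-only, 5.5 kb upstream with a pileup of 18 and 8.6 kb downstream with a pileup of 26. That of 26 corresponds to 49.9 in WT and that of 18 to 34.6, where about 14 would have been enough at either.

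**Figure D5:**
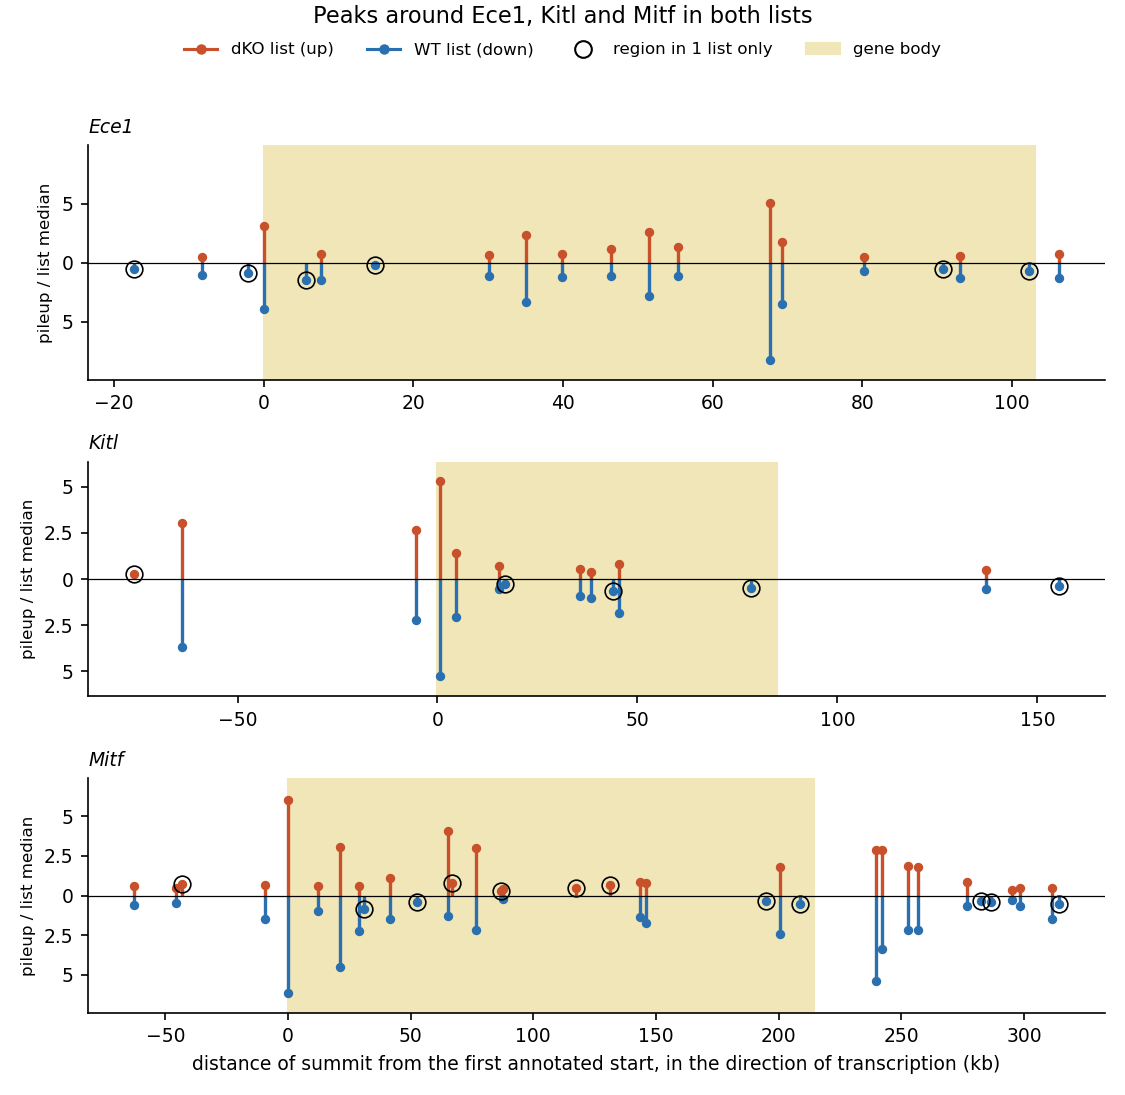
Position and height of peaks around Ece1, Kitl and Mitf, drawn as distance of the summit from the first annotated start in kb against summit pileup divided by the median of the list, dKO up and WT down, with open circles for regions in 1 list only and the gene body shaded. The first starts of Kitl and Mitf have stems of nearly equal height (log2 scaled ratios 0.01 and −0.03), and the tallest dKO stem that exceeds its WT partner by over 2-fold is at 65.1 kb in Mitf.

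Dct (gene 13190, chromosome 14, 118012790 to 118052246, mm10, minus strand) had 0 dKO-only, 3 WT-only and 2 shared regions. The region just inside the gene, with its summit 1049 bp past the start (chr14:118050705-118052218), was open in both genotypes at a pileup of 78 in dKO and 184 in WT (log2 scaled ratio −0.30, −0.70 to 0.09). It ended 120 bp short of the start in dKO and 28 bp short in WT. The shared region 50.9 kb from the start, past the 3′ end, had 17 in dKO and 33 in WT (−0.02, −0.95 to 0.87). The 3 WT-only regions had pileups of 17, 18 and 33, of which the first corresponds to 8.8 in dKO, below the lowest listed dKO pileup of 9, so its absence from the dKO list was not detectable as a difference at this depth.

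Other genes of endothelin signalling had more WT-only than dKO-only regions, as did all genes. The 11 genes, among them the G protein gene Gnaq, phospholipase C genes and the protein kinase C gene Prkca, had 12 dKO-only, 25 WT-only and 60 shared regions, with a median log2 scaled ratio of −0.30. Their dKO-only share was 12.4% and their WT-only share 25.8%, near the 12.8% and 21.2% of all gene-assigned regions. More dKO-only regions were found at 1 gene (Mme, 4 dKO-only and 2 WT-only), more WT-only at 5, and equal numbers at 5. Of genes whose single-list counts differed by at least 3, Gnaq had 2 dKO-only and 7 WT-only regions, Plcb4 had 1 and 5, and Prkca had 3 and 7. A peak covered the start of 8 of these 11 genes in both lists. The other signals of the melanocyte niche, 14 of 15 listed genes found in the gene table (Asip was not matched), had 13 dKO-only, 27 WT-only and 73 shared regions, with a median log2 scaled ratio of −0.12. Their shares, 11.5% dKO-only and 23.9% WT-only, were also near those of all regions. More dKO-only regions were found at 1 gene (Hgf, 2 dKO-only and 0 WT-only), more WT-only at 7, and equal numbers at 6. Of genes that differed by at least 3, Tgfbr1, a receptor of TGF-beta, had 0 dKO-only and 4 WT-only regions, the hepatocyte growth factor receptor gene Met had 1 and 4, and Col17a1, encoding the hemidesmosomal collagen XVII, had 3 and 6.

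The 15 other melanocyte genes had 17 dKO-only, 9 WT-only and 38 shared regions, with a median log2 scaled ratio of −0.01. Their dKO-only share was 26.6% (17.3 to 38.5) against 12.8% of all gene-assigned regions, and their WT-only share 14.1% (7.58 to 24.6) against 21.2%. More dKO-only regions were found at 5 genes, more WT-only at 4 (Slc45a2 with 0 dKO-only and 2 WT-only, and Pax3, Mc1r and Snai2 with 0 and 1 each), and equal numbers at 6. Of genes that differed by at least 3, Trpm1, encoding a cation channel of melanocytes, had 7 dKO-only and 1 WT-only regions, and Oca2, encoding a melanosomal transporter, had 4 and 0. Trpm1 and Oca2 together thus held most of the 17 dKO-only regions. The intervals of the shares count regions of 1 gene as independent, which they need not be. The tyrosinase gene Tyr had 0 regions, and the starts of Tyr, Tyrp1, Oca2, Slc24a5 and Trpm1 were covered by no peak in either list. Peaks covered the starts of Ptgds and Tfap2a in both lists and that of Mc1r in the WT list only. These genes were not tested as a group, and how far their regions come from melanocytes in the sort was not tested.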

How the data were processed

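ATAC-seq peak lists of sorted hair follicle stem cells, 1 for the 2 dKO mice and 1 for the 2 WT mice, were analysed. The submitters' processing notes list Bowtie2 2.2.9, Picard, MACS2 and build mm10, without saying what each did. The pooling of the mice, read shifting and duplicate handling are not stated. The deposited signal is the unscaled pileup at each summit. The deposited fold enrichment is a ratio, pileup plus 1 over local background plus 1, per the file headers. The authors' −log10 p and −log10 q columns have damaged header cells and were identified by position. A Poisson p recomputed from pileup and background came within 0.01 of the deposited −log10 p for 99.997% of dKO peaks and 99.981% of WT peaks.

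Mitochondrial peaks (3 in dKO, 5 in WT) were left out. Genes came from a RefSeq GRCm38.p6 table, and a merged region took the highest peak of each list. Distances run from the first annotated start to the summit of the list with the higher scaled pileup. Local background was solved from pileup and enrichment. Ratio intervals are exact binomial, conditional on the summed pileup, and shares have Wilson intervals. PCR copies are not independent molecules, so both cover counting error only. The pileup needed for a call was derived from the other list's scaled background and the weakest p listed.

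Regions were named at starts, where strongest in a gene, where single-list in the stronger 50% of a list, past 2-fold, or at Edn2, and others were added after their values were seen. Members and lists were chosen with earlier results of these data known. Python 3.11.15 and scipy 1.17.1 were used, on scripts tested on simulated data.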

Additional observations from a re-analysis of the deposited data

How the results depend on the processing

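No paired analysis was possible because each genotype is 1 pooled list and the mouse numbers of the groups do not match, and leaving out a mouse could not be run for the same reason. The dKO-only count of 8 became 18 with summits within 200 bp and 5 with nearest genes within 20 kb, where the WT-only count was 17 and the shared count 46. These follow from the settings: 9 of the 74 shared regions have summits over 200 bp apart and count as separate under the first, and the last 3 counts come from smaller windows. The median log2 ratio of shared regions, −0.45, was 0.02 with the deposited fold enrichment, and that of Ednra, −0.87, was 0.30. The enrichment divides by a local background that was also lower in dKO. Under all other settings and log2 scalings the member median stayed negative. It ran from −0.59 with a q value of 1e-05 or less to −0.29 scaled to the median of shared regions, where the median over all shared regions was −0.25 and 0.01. As a difference in percentile rank within each list, it was −6.23 percentile points, against −1.13 over all shared regions. After thinning the WT list to the background level of dKO there were 10 dKO-only and 23 WT-only regions, and with lists of equal length 12 and 23. The excess of WT-only regions at Edn1 was 6, and 4 after thinning, and 1 with nearest genes within 20 kb. That at Mitf, 2, was 0 with thinning, equal lengths or 20 kb, and that at Dct, 3, was 1 with equal lengths or a q value of 1e-05 or less, where that at Ednra, 0, was 2. Ednra did not keep the lowest median under every setting: with a q value of 1e-05 or less it was −0.82, against −0.92 at Edn1, and within 20 kb it was −0.49, against −0.72 at Ece1 and −0.57 at Kitl. The Ece1 median, −0.72, was −0.01 with fold enrichment. Depth limits single-list calls: peaks near the lowest pileup of 9 in dKO or 14 in WT may be missed in the other list.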
